A study of Mus musculus with 12 samples.

Results

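The 7 genes described here encode acute phase and related defence proteins: the serum amyloid A proteins Saa1, Saa2 and Saa3, the lipocalin Lcn2, haptoglobin (Hp), orosomucoid 1 (Orm1) and the secretory leukocyte protease inhibitor Slpi. They were chosen by gene symbol, and are 7 of the 20606 genes in the deposited table. Bulk RNA sequencing had been carried out on 4 groups of 3 libraries of fibroblasts from mouse lung, in a study of breast cancer metastasis to the lung. M-MF and M-MyoF are the MF and MyoF subgroups from mice with lung metastasis, and N-MF and N-MyoF are the same subgroups from normal mice. In the series title MF is written out as matrix fibroblasts, while MyoF is kept here as the submitters wrote it. The sources used here do not give the tumour model, strain, age, genotype or sorting method. Whether the 3 libraries of a group are from 3 different animals is not labelled. The p-values therefore rest on a spread between libraries that may be no more than technical.

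The acute phase response is a rapid change in secreted proteins after infection, injury or a growing tumour. In the liver it is driven mainly by interleukin 6 and interleukin 1, which act through STAT3, C/EBP and NF-kappaB factors on the promoters of these genes. Several of the proteins are also made outside the liver: mouse Saa3 by fibroblasts, adipocytes and macrophages, Lcn2, Hp and Slpi by neutrophils, and Lcn2 and Slpi by epithelial cells.

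The deposited values are FPKM, fragment counts divided by transcript length and by mapped fragments, so levels of different genes can be set side by side and the read depth is unknown. Their sum per library ran from 528176 to 618478, and 11466 to 12682 genes had 1 FPKM or more. Log2 values of libraries of the same group correlated at 0.996 to 0.998. Summed markers followed the subgroup names in part. The 5 matrix fibroblast markers summed to 752 to 781 FPKM in M-MF and 1619 to 1701 in N-MF, most of it from Pi16. In M-MyoF they summed to 125 to 130 FPKM and in N-MyoF to 192 to 198. Of the 5, Col13a1 and Npnt were lower in N-MF than in N-MyoF, averaging 3.03 and 12.2 FPKM against 5.01 and 39.6. The 6 fibroblast markers, such as Col1a1 and Pdgfra, summed to 15232 to 15352 FPKM in M-MF and 20950 to 21182 in N-MF, but to 1975 to 1994 in M-MyoF and 3467 to 3518 in N-MyoF. The 6 markers of myofibroblasts and smooth muscle, such as Acta2, summed to 294 to 298 FPKM in M-MF and 447 to 464 in N-MF. Their sums were 2934 to 2989 FPKM in M-MyoF and 4460 to 4569 in N-MyoF. These sums were lower in metastasis mainly through Aspn and Hhip. In M-MyoF these 2 genes averaged 683 and 787 FPKM, against 1210 and 2231 in N-MyoF. Acta2 itself was higher in metastasis, with log2(FPKM + 1) differences of 1.69 in MF and 0.594 in MyoF. In the limma fit used below, 4 of the 6 passed as higher and 2 as lower in MF. In MyoF 2 passed as higher and 3 as lower. The shares of all genes were 46.3% higher and 31.8% lower in MF, and 49.1% higher and 31.6% lower in MyoF. The 6 airway epithelial markers summed to 12147 to 12753 FPKM in M-MyoF and 14966 to 15437 in N-MyoF, nearly all of it from Scgb1a1, the club cell secretoglobin, with means of 12279 and 14807 FPKM. Each of the other 5 averaged 105 FPKM or less in M-MyoF and 168 or less in N-MyoF. The source of that RNA was not tested. In bulk RNA, fewer cells of a type and less RNA per cell cannot be told apart.

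The 4 SAA genes lie together on chromosome 7 in the RefSeq annotation of GRCm38.p6, with Saa3 at chr7:46711998-46719615, Saa4 at chr7:46727992-46732603, Saa1 at chr7:46740497-46743181 and Saa2 at chr7:46751833-46754313. Lcn2 at chr2:32384637-32387739 and Slpi at chr2:164354070-164356507 lie far apart on chromosome 2. Hp is at chr8:109575128-109579172, and Orm1 at chr4:63344556-63348163 stands beside Orm3 and Orm2. The RefSeq promoter table matched Saa1, Saa2, Saa3, Lcn2 and Slpi, 5 of the 7 genes. The 250 bases before the start of each are given because these genes moved together, and because C/EBP factors are textbook regulators of acute phase promoters. Capitals mark each match to TTGCNNAA on either strand, a C/EBP motif in which N stands for any base, and sequences run 5′ to 3′ on the gene's own strand. The windows are chr7:46742981-46743230 for Saa1 (minus strand), chr7:46751583-46751832 for Saa2 (plus strand) and chr7:46715677-46715926 for Saa3 (minus strand). For Lcn2 and Slpi they are chr2:32387740-32387989 and chr2:164356508-164356757 (both minus strand). For Saa1 and Saa3 the start used lies inside the annotated gene. The marked match of each of these 2 windows therefore also lies within the annotated gene.
Saa1: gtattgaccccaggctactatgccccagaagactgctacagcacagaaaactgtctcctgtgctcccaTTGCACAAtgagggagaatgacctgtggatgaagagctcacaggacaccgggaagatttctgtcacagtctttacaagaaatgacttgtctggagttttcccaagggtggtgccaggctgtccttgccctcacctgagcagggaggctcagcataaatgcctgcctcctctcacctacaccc
Saa2: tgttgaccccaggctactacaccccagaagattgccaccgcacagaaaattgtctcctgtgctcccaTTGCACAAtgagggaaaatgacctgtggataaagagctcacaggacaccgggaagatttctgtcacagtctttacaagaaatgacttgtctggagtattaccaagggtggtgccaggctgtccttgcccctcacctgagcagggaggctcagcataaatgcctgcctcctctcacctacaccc
Saa3: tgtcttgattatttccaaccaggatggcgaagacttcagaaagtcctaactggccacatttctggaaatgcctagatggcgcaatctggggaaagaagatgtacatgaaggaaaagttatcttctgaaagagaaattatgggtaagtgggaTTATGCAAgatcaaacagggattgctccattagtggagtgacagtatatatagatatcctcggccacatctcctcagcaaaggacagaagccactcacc
Lcn2: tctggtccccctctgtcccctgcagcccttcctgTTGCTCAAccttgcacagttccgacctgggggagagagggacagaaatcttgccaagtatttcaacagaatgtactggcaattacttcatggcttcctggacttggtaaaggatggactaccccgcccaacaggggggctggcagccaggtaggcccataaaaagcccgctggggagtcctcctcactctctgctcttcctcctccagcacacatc
Slpi: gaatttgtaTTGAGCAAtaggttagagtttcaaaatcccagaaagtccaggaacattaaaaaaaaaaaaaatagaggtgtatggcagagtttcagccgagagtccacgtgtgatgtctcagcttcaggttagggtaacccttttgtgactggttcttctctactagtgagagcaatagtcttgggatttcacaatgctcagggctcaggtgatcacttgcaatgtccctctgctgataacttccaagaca
The Saa1 and Saa2 windows were 94.8% identical over 251 aligned positions, and the Saa1 and Saa3 windows 48.9%. Each of the 5 windows held 1 match, starting 182 bases before the start in Saa1, 183 in Saa2, 99 in Saa3, 216 in Lcn2 and 241 in Slpi. Of 32851 RefSeq windows of the same length, 9.56% held such a match. A STAT motif, TTCNNNGAA, was in 0 of the 5 windows and 7.02% of all, and the NF-kappaB consensus was in 0 of the 5 and 7.25% of all. The motifs were chosen with the windows in view, and a match is a run of letters and not a measured binding site.

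All 7 genes were higher in lungs with metastasis, in both subgroups. In M-MF against N-MF, 7 of 7 passed as higher in a limma fit with adjusted p under 0.05, where 46.3% of the 13300 genes tested passed as higher and 31.8% as lower. With a minimum of 2-fold, 6 of 7 were higher, where the share of all genes was 9.32%. In M-MyoF against N-MyoF, 7 of 7 were higher, where the share of all genes was 49.1% (31.6% lower), and 7 of 7 at 2-fold or more, where it was 11.4%. In both comparisons the 3 metastasis libraries lay above the 3 normal ones for each of the 7 genes, as they did for 47.1% of all genes in MF and 49.9% in MyoF. Saa1, Saa2 and Orm1 reached 1 FPKM through metastasis libraries alone, so their passing the expression filter already depended on being high there. Folds are of FPKM + 1, so they are too small for genes with little expression. In M-MF against N-MF, for example, the log2 difference of Saa2 is 1.30 with a pseudocount of 1 but 3.40 with 0.1 and 0.39 with 5. Values after ± are SD for FPKM means and SE for log2 differences.

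**Figure D1:**
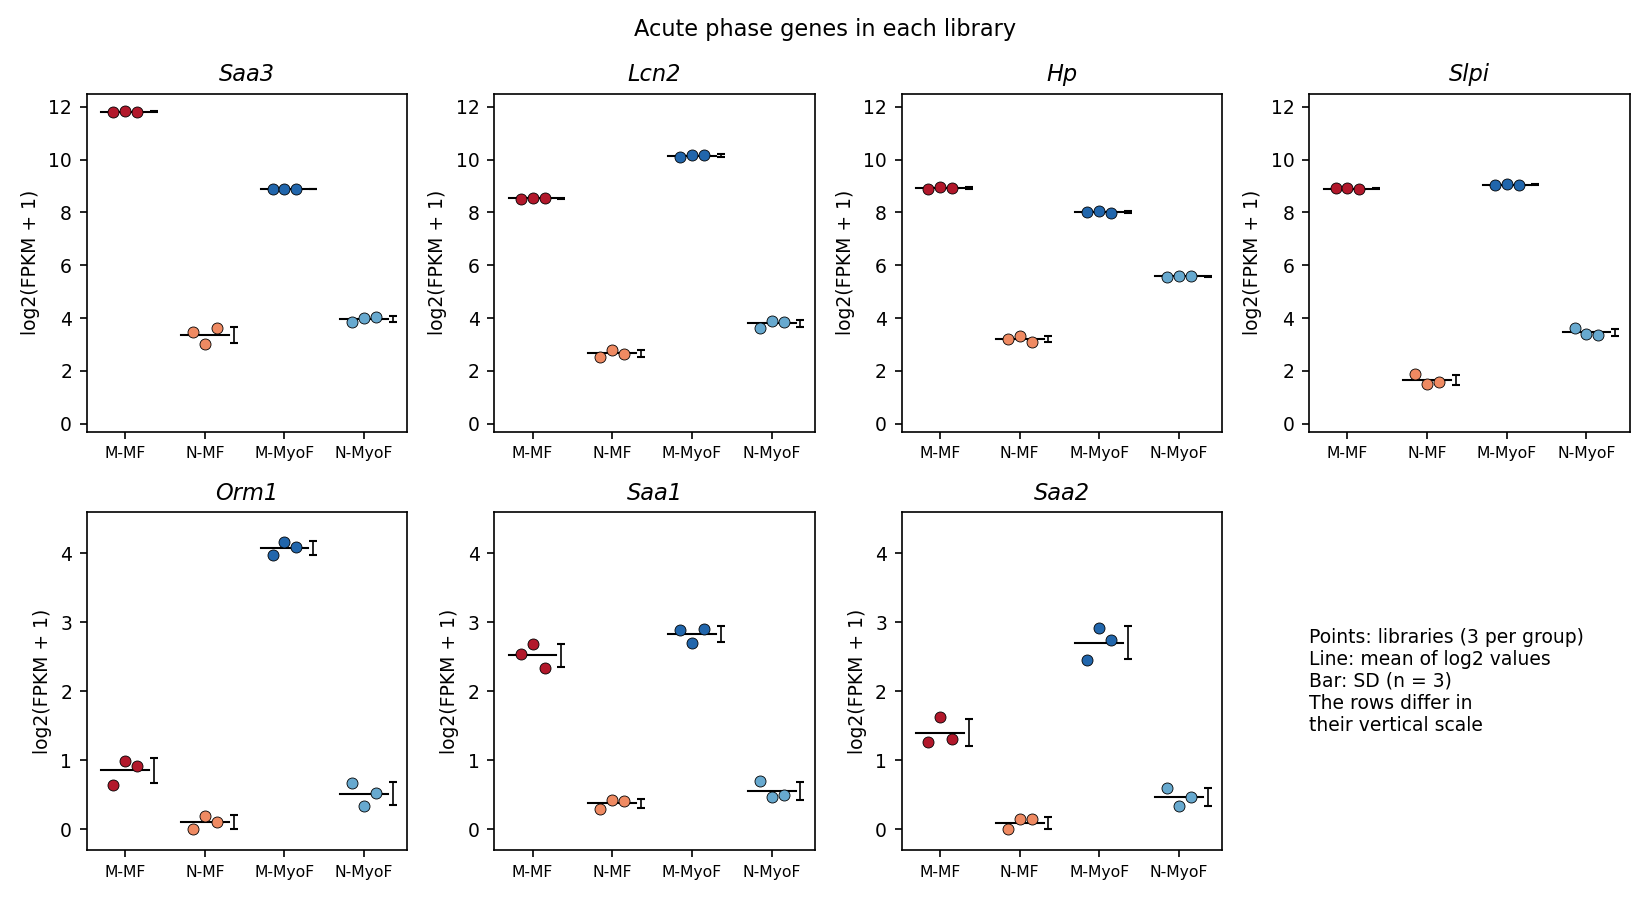
Level of each gene as log2(FPKM + 1) in the 12 libraries, by group. Points are libraries, lines the mean and bars the SD (n = 3). Saa3 and Hp were highest in M-MF, the other 5 genes in M-MyoF, and the upper and lower rows have different scales.

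Saa3, a serum amyloid A that in mice is made mainly outside the liver, had 3551, 3622 and 3555 FPKM in M-MF libraries, against 10.0, 7.16 and 11.2 FPKM in N-MF libraries. All M-MF libraries stood far above all N-MF libraries, and Saa3 was the gene at rank 11 by FPKM in each of the 3. The log2 difference was 8.44 ± 0.109, a 347-fold rise (limma adjusted p = 2.21e-15). The M-MyoF libraries had 476, 472 and 466 FPKM, against 13.3, 15.2 and 15.6 FPKM in N-MyoF libraries. These groups also stood apart, with a log2 difference of 4.91 ± 0.109 (30.1-fold; limma adjusted p = 2.58e-13). Among the rises of all genes Saa3 ranked 1 in MF and 34 in MyoF, but 5 and 91 with a pseudocount of 0.1. The rise was larger in MF than in MyoF by 3.52 ± 0.154 on the log2 scale (limma adjusted p = 9.49e-10). Among metastasis libraries, M-MF held 7.57-fold more Saa3 than M-MyoF, while among normal libraries N-MF was below N-MyoF (log2 difference -0.60 ± 0.109).

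Saa1 and Saa2 encode the serum amyloid A proteins that the mouse liver releases into the blood, where they travel on high-density lipoprotein. Saa1 had 4.81, 5.41 and 4.08 FPKM in M-MF libraries, against 0.23, 0.34 and 0.33 in N-MF libraries. In M-MyoF libraries it had 6.38, 5.53 and 6.52 FPKM, against 0.63, 0.39 and 0.41 in N-MyoF libraries. Neither pair of groups overlapped, and in metastasis libraries all values were far below those of Saa3. Saa1 rose by 2.14 ± 0.09 in MF and by 2.28 ± 0.09 in MyoF (limma adjusted p = 1.63e-10 and 7.57e-11). The difference between these rises was -0.13 ± 0.127 (limma adjusted p = 0.384), with a 95% interval of -0.41 to 0.15.

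Saa2 had 1.40, 2.08 and 1.49 FPKM in M-MF libraries, while in N-MF libraries it was listed at 0 in replicate 1 and had 0.11 FPKM in the other two. In M-MyoF it had 4.46, 6.58 and 5.73 FPKM, against 0.51, 0.26 and 0.39 FPKM in N-MyoF. The groups of both pairs stood apart, M-MyoF highest. The log2 differences were 1.30 ± 0.122 in MF and 2.24 ± 0.122 in MyoF (limma adjusted p = 5.33e-07 and 1.91e-09). The rise passed as smaller in MF than in MyoF, with a difference of -0.94 ± 0.172 (limma adjusted p = 0.000421), but with a pseudocount of 0.1 in place of 1 that difference was -0.16 and did not pass (adjusted p = 0.751). The split between Saa1 and Saa2 is uncertain, since their main transcripts were 93.9% identical and shared 13.2% of the 560 stretches of 50 bases in Saa1. Saa3 shared 1.78% of its 506 stretches with these 2 genes. Saa4, the constitutively made member of the cluster, did not reach the filter, with 0.48, 0.20 and 0.27 FPKM in M-MF libraries and 0 listed in all 3 N-MF libraries. It had 0.12, 0.07 and 0.12 FPKM in M-MyoF libraries, against 0, 0.03 and 0 FPKM in N-MyoF libraries.

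Lcn2, also called neutrophil gelatinase-associated lipocalin, binds bacterial siderophores and so withholds iron. It had 365, 372 and 374 FPKM in M-MF libraries, against 4.83, 5.89 and 5.27 FPKM in N-MF libraries. The M-MyoF libraries had 1089.9, 1145 and 1166 FPKM, against 11.5, 13.8 and 13.5 FPKM in N-MyoF libraries. Both pairs of groups were far apart, and Lcn2 was the most abundant of the 7 genes in M-MyoF. It rose 58.8-fold in MF (log2 difference 5.88 ± 0.0648; limma adjusted p = 6.28e-16) and 81.7-fold in MyoF (6.35 ± 0.0648; limma adjusted p = 2.86e-16). The rise was smaller in MF, with a difference of -0.48 ± 0.0916 (limma adjusted p = 0.000612).

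Hp, which binds free haemoglobin for clearance, had 471, 491 and 481 FPKM in M-MF libraries, against 8.31, 8.87 and 7.57 FPKM in N-MF libraries. In M-MyoF libraries it had 255, 262 and 252 FPKM, against 46.5, 47.0 and 46.9 FPKM in N-MyoF libraries. It was the most abundant of the 7 in N-MyoF, and no pair of groups overlapped. The rise was 52.2-fold in MF (5.71 ± 0.0401; limma adjusted p = 1.64e-17) and 5.39-fold in MyoF (2.43 ± 0.0401; limma adjusted p = 1.9e-14). It was larger in MF by 3.28 ± 0.0567 (limma adjusted p = 2.29e-13). Hp differed between the subgroups in opposite directions by condition: M-MF was above M-MyoF by 0.91 ± 0.0401, and N-MF was below N-MyoF, at -2.37 ± 0.0401.

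Orm1, an acid glycoprotein that carries drugs and other small molecules in plasma, had 0.57, 0.99 and 0.90 FPKM in M-MF libraries. In N-MF it was listed at 0 in replicate 1 and had 0.15 and 0.08 FPKM in replicates 2 and 3. The M-MyoF libraries had 14.7, 17.0 and 16.1 FPKM, against 0.60, 0.27 and 0.44 FPKM in N-MyoF libraries. Only M-MyoF among the 4 groups held Orm1 above 1 FPKM, and the M-MF and N-MyoF libraries overlapped. The log2 difference was 0.75 ± 0.102 in MF (limma adjusted p = 1.82e-05) and 3.56 ± 0.102 in MyoF (limma adjusted p = 2.77e-12), and the rise was smaller in MF, with a difference of -2.81 ± 0.144 (limma adjusted p = 3.99e-09). Orm1 shares 20.4% of its 726 stretches of 50 bases with its neighbours Orm2 and Orm3, so its split from them is uncertain. Orm2 did not pass the filter, and Orm3 averaged 0.76 ± 0.305 FPKM in M-MF, 0.313 ± 0.0513 in N-MF, 2.08 ± 0.932 in M-MyoF and 2.03 ± 0.0231 in N-MyoF (n = 3 each). Orm3 passed in neither metastasis comparison, with log2 differences of 0.41 ± 0.184 in MF and -0.02 ± 0.184 in MyoF (limma adjusted p = 0.0597 and 0.914). With the library number as a block the MF difference passed (adjusted p = 0.0372). It passed in 6 of 21 alternatives, with an adjusted p from 0.00044 without the libraries numbered 3 to 0.446 with quantile normalization, and also with a pseudocount of 0.1 (0.0137) and when M-MF replicate 3 (0.0178), M-MyoF replicate 1 (0.026) or M-MyoF replicate 3 (0.00653) was left out. The MyoF difference passed in 1 of 22, without the libraries numbered 3 (0.24, adjusted p = 0.0473).

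Slpi blocks neutrophil elastase, cathepsin G and related serine proteases. It had 480.1, 481 and 469 FPKM in M-MF libraries, against 2.65, 1.83 and 1.99 FPKM in N-MF libraries. In M-MyoF libraries it had 526, 539 and 518 FPKM, against 11.3, 9.61 and 9.32 FPKM in N-MyoF libraries. The 2 metastasis groups were close to each other and the 2 normal groups lay far below. Slpi rose 152-fold in MF (7.25 ± 0.0819; limma adjusted p = 7.79e-16) and 47.8-fold in MyoF (5.58 ± 0.0819; limma adjusted p = 6.32e-15). The rise was larger in MF by 1.67 ± 0.116 (limma adjusted p = 7.84e-08). M-MF and M-MyoF libraries did not overlap, yet their log2 difference of -0.15 ± 0.0819 did not pass (limma adjusted p = 0.114; 95% interval -0.32 to 0.03), and it passed as lower at an adjusted p of 0.00014 when these 2 groups were fitted alone. N-MF was below N-MyoF, with a log2 difference of -1.82 ± 0.0819.

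**Figure D2:**
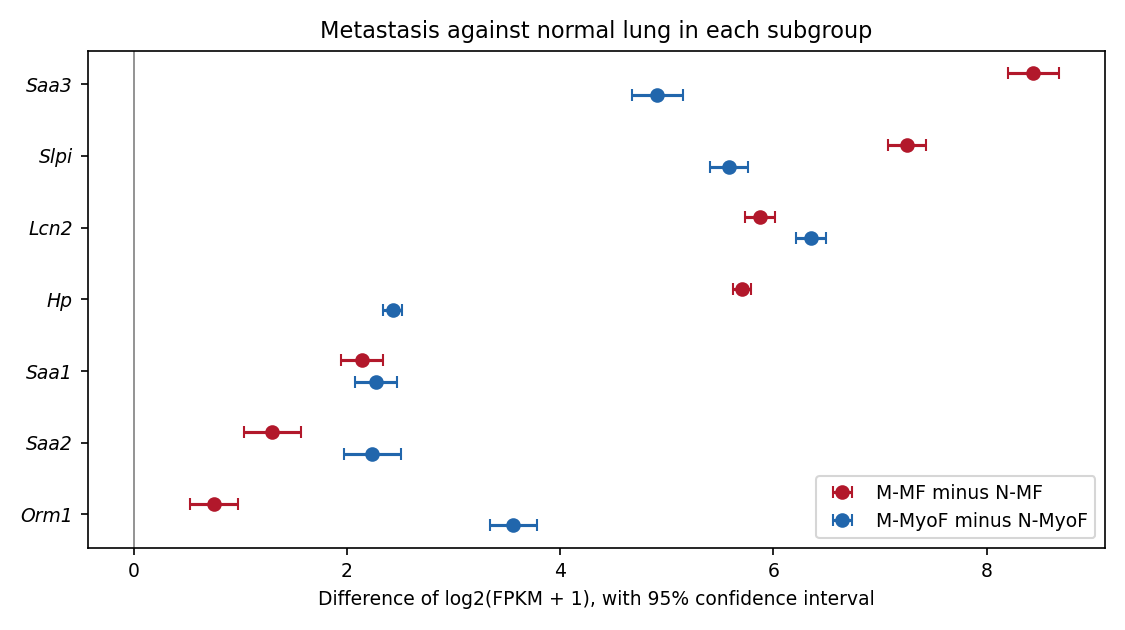
Difference of log2(FPKM + 1) between metastasis and normal libraries for each gene, with its 95% confidence interval from the limma fit (12 libraries), for M-MF minus N-MF and M-MyoF minus N-MyoF. Saa3, Slpi and Hp rose more in MF, Lcn2, Saa2 and Orm1 more in MyoF, and the intervals of Saa1 overlap.

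The metastasis effect itself differed between the subgroups for 6 of the 7 genes, 3 larger in MF (Saa3, Hp and Slpi) and 3 smaller (Lcn2, Saa2 and Orm1), where 64.4% of all genes passed this test, 26.4% as larger in MF and 38% as smaller. Between the 2 metastasis groups, Saa3 and Hp were higher in M-MF than in M-MyoF and Saa1, Saa2, Lcn2 and Orm1 lower, where 19.1% of all genes passed as higher and 66% as lower. Lcn2 was 3.06-fold and Orm1 9.33-fold lower in M-MF. The Saa1 difference of -0.31 ± 0.09 (limma adjusted p = 0.00601) did not pass after median-ratio scaling (-0.09, adjusted p = 0.382) and was 0.02 after quantile normalization. Without the 4 libraries numbered 3, chosen after seeing the data, it was -0.19 (adjusted p = 0.117). In normal lungs, 6 of 7 genes were lower in N-MF than in N-MyoF, where 57.6% of all genes passed as lower and 24.5% as higher. Hp, Slpi and Lcn2 were lower there by 2-fold or more, as were 11.9% of all genes. Saa2 was among them at -0.37 ± 0.122 (limma adjusted p = 0.0139), and did not pass without N-MF replicate 1 (-0.32, adjusted p = 0.0528) or without N-MyoF replicate 1 (-0.30, adjusted p = 0.0573). Saa1 did not pass, at -0.18 ± 0.09 (limma adjusted p = 0.0801).

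Summed over the 7 genes, the signal was 4911 ± 55.8 FPKM in M-MF and 25.7 ± 1.16 FPKM in N-MF (SD, n = 3 each). It was 2417 ± 39.1 FPKM in M-MyoF and 85.8 ± 1.25 FPKM in N-MyoF. These sums were 0.857% of the library's FPKM in M-MF, 0.005% in N-MF, 0.392% in M-MyoF and 0.016% in N-MyoF. The make-up differed as well as the amount. Saa3 held 72.8% of the sum in M-MF and 36.7% in N-MF, but 19.5% in M-MyoF and 17.1% in N-MyoF. Lcn2 held 7.54% in M-MF and 20.9% in N-MF, against 46.9% in M-MyoF and 15.045% in N-MyoF. Hp held 9.79% in M-MF and 32.3% in N-MF, and 10.6% in M-MyoF and 54.5% in N-MyoF, where it was the leading gene.

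**Figure D3:**
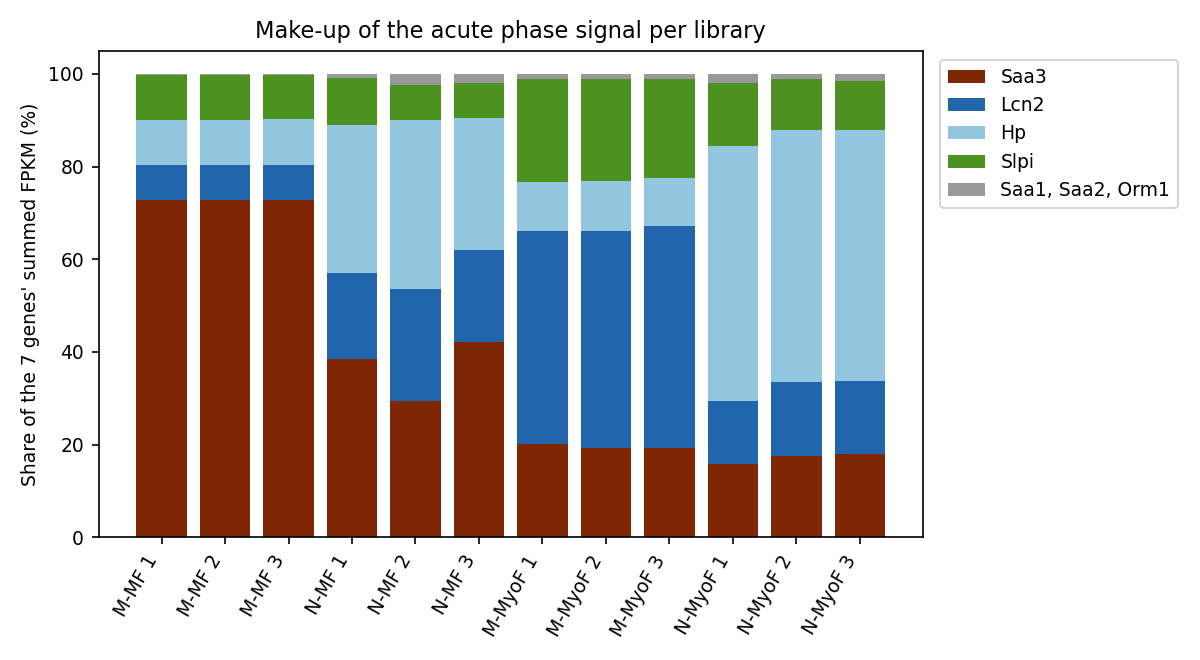
Share of each gene in the summed FPKM of the 7 genes (percent, bars add up to 100) in each of the 12 libraries, named by group and replicate. Saa3 fills 72.8% of the M-MF bars on average, Lcn2 46.9% of the M-MyoF bars and Hp 54.5% of the N-MyoF bars.

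Most neutrophil markers moved with these genes, most of all in MyoF. The 11 of them, among them S100a8, S100a9, Ngp and Camp, summed to 252 to 261 FPKM in M-MF and 33.4 to 38.1 in N-MF, with Mpo and Ltf under 0.1 FPKM in N-MF. They summed to 13274 to 13622 FPKM in M-MyoF and 141 to 154 in N-MyoF. Ly6g and Elane reached 1 FPKM in M-MyoF libraries alone, so their passing the expression filter already depended on being high there. In M-MF 9 of 11 passed as higher than in N-MF, and in M-MyoF 11 of 11 as higher than in N-MyoF. Of all genes, 46.3% passed as higher and 31.8% as lower in MF, and 49.1% as higher and 31.6% as lower in MyoF. These shares also stand beside the marker counts of the next paragraph. Csf3r (-0.09, limma adjusted p = 0.29) and Cxcr2 (0.32, limma adjusted p = 0.082) did not pass in MF. The pan-leukocyte marker Ptprc averaged 0.48 FPKM in M-MF and 0.643 in N-MF (-0.15, limma adjusted p = 0.0142), passing in 19 of 22 alternatives. In MyoF it was higher, at 9.52 FPKM in M-MyoF and 3.80 in N-MyoF (1.13). Neutrophils also express Lcn2, Hp, Slpi and Orm1, and the part of these cells in the 4 genes' values was not tested.

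Markers of other lining cells moved too. The 6 airway epithelial markers summed to 1643 to 1669 FPKM in M-MF and 1052 to 1078 in N-MF. In MF 5 of them were higher and 1 lower, and in MyoF 2 were higher and 4 lower. The 6 alveolar markers summed to 1395 to 1413 FPKM in M-MF and 1581 to 1613 in N-MF. In MF 2 of them were higher and 3 lower. They summed to 3853 to 4014 FPKM in M-MyoF and 5255 to 5368 in N-MyoF, with 6 of 6 lower. The 7 mesothelial markers, such as Msln and Upk3b, summed to 265 to 269 FPKM in M-MF and 16.9 to 18.3 in N-MF, with 7 of 7 higher, and to 261 to 270 in M-MyoF and 136 to 140 in N-MyoF, with 6 of 7 higher. The 6 keratin and adhesion genes taken as carcinoma markers summed to 297 to 304 FPKM in M-MF and 12.8 to 14.7 in N-MF, where Krt14 and Krt5 were under 0.1. In M-MyoF they summed to 701 to 723 FPKM, against 61.4 to 64.7 in N-MyoF. Krt8 and Krt18 carried most of these sums, Krt8 averaging 166 FPKM in M-MF against 5.31 in N-MF and 387 in M-MyoF against 23.0 in N-MyoF. Krt18 averaged 122 FPKM in M-MF against 4.79 in N-MF, and 293 in M-MyoF against 24.5 in N-MyoF. Of 5 tested, 4 were higher and 1 lower in M-MF against N-MF, and 3 higher and 1 lower in M-MyoF against N-MyoF. Cdh1, which encodes the epithelial cadherin, was the lower one in both (-0.17 and -0.30), and Epcam did not pass in MyoF (0.04, limma adjusted p = 0.614). The part of any of these cell types in the 7 genes' values was not tested. Macrophage markers summed to 239 to 258 FPKM in M-MF and 269 to 273 in N-MF, and to 966 to 1007 in M-MyoF and 1004 to 1049.6 in N-MyoF, nearly all of it from Lyz2, which averaged 237 FPKM in M-MF and 260 in N-MF, and 958 in M-MyoF and 984 in N-MyoF. Of 7 tested, 0 were higher in either comparison, while 3 were lower in MF and 4 in MyoF. Mrc1, 1 of these markers, reached 1 FPKM in N-MyoF libraries alone, so its passing the expression filter already depended on being high there. Of the hepatocyte markers, Alb averaged 0 FPKM in M-MF, 0.0367 in N-MF, 0.0567 in M-MyoF and 0.0833 in N-MyoF. Ahsg, the fetuin gene, was the hepatocyte marker that stood above a few FPKM, at 46.6 ± 1.84 FPKM in M-MF and 10.6 ± 1.57 in N-MF (SD, n = 3 each).

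**Figure D4:**
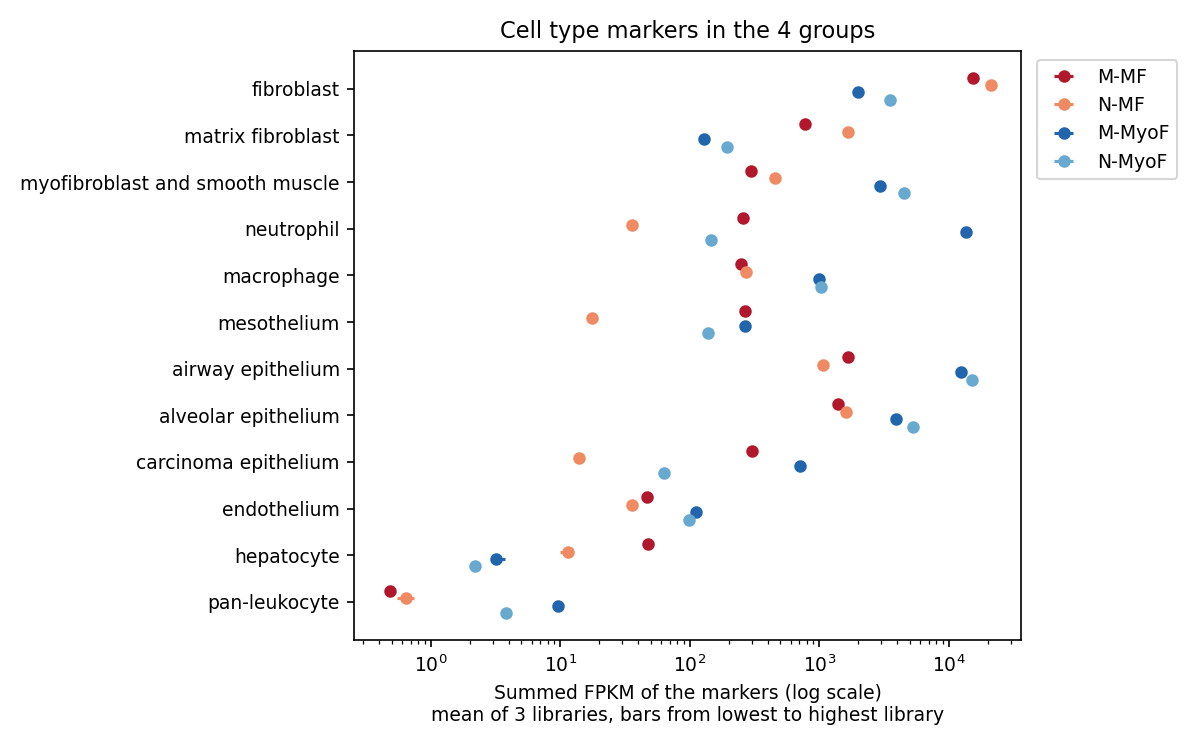
Summed FPKM (log scale) of marker genes of each cell type in the 4 groups, as the mean of 3 libraries with bars from the lowest to the highest library. Neutrophil markers stand at 13274 to 13622 FPKM in M-MyoF, against 141 to 154 in N-MyoF, and the mesothelial and carcinoma markers of M-MF lie above those of N-MF.

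Among other acute phase genes more passed as higher than as lower. Of 34 listed, 23 were tested. In M-MF against N-MF, 18 (78.3%) were higher, 1 (4.35%) was lower and 4 did not pass, where 46.3% of all genes were higher and 31.8% lower. In M-MyoF against N-MyoF, 15 (65.2%) were higher, 5 (21.7%) lower and 3 did not pass, where 49.1% of all genes were higher and 31.6% lower. The median log2 difference was 1.21 in MF and 0.89 in MyoF, where the median of all genes was 0.08 and 0.11. These shares and medians of all genes apply to the lists that follow. Lrg1, a leucine-rich glycoprotein of plasma and of neutrophil granules, averaged 55.2 FPKM in M-MF and 3.36 in N-MF, a log2 difference of 3.69 ± 0.0428, and 219 FPKM in M-MyoF and 10.9 in N-MyoF, a difference of 4.21 ± 0.0428 (limma adjusted p = 9.83e-16 and 2.79e-16). Serpina3n, a serine protease inhibitor, reached 1307 FPKM in M-MF, against 253 in N-MF (2.36 ± 0.0306), and 224 FPKM in M-MyoF, against 15.4 in N-MyoF (3.77 ± 0.0306).

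Its relative Serpina3i averaged 282 FPKM in M-MF and 17.7 in N-MF (3.92 ± 0.0511), though Serpina3 genes are near copies of each other whose reads may be split. Cd14, the co-receptor for bacterial lipopolysaccharide, rose by 2.57 ± 0.0375 in MF. The complement genes showed the larger rise in MyoF: C3 averaged 444 FPKM in M-MyoF and 56.9 in N-MyoF (2.94 ± 0.0235), and 2609 FPKM in M-MF and 1105 in N-MF (1.24 ± 0.0235). The C3 rise was smaller in MF, with a difference of -1.71 ± 0.0332 (limma adjusted p = 6.27e-13), and so was that of Cfb, complement factor B, at -1.15 ± 0.0302 (limma adjusted p = 8.97e-12). Against the trend of the list, and named after their values were seen, Il1rn fell in both subgroups (-0.75 ± 0.0518 in MF and -0.47 ± 0.0518 in MyoF), and Hpx, Itih4, A2m and Mt1 fell in MyoF. Il1rn encodes the interleukin 1 receptor antagonist. A2m rose by 1.21 ± 0.042 in MF and fell in MyoF (-0.88 ± 0.042), and Mt1, a metallothionein, rose by 0.57 ± 0.0211 in MF and fell in MyoF (-0.68 ± 0.0211).

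**Figure D5:**
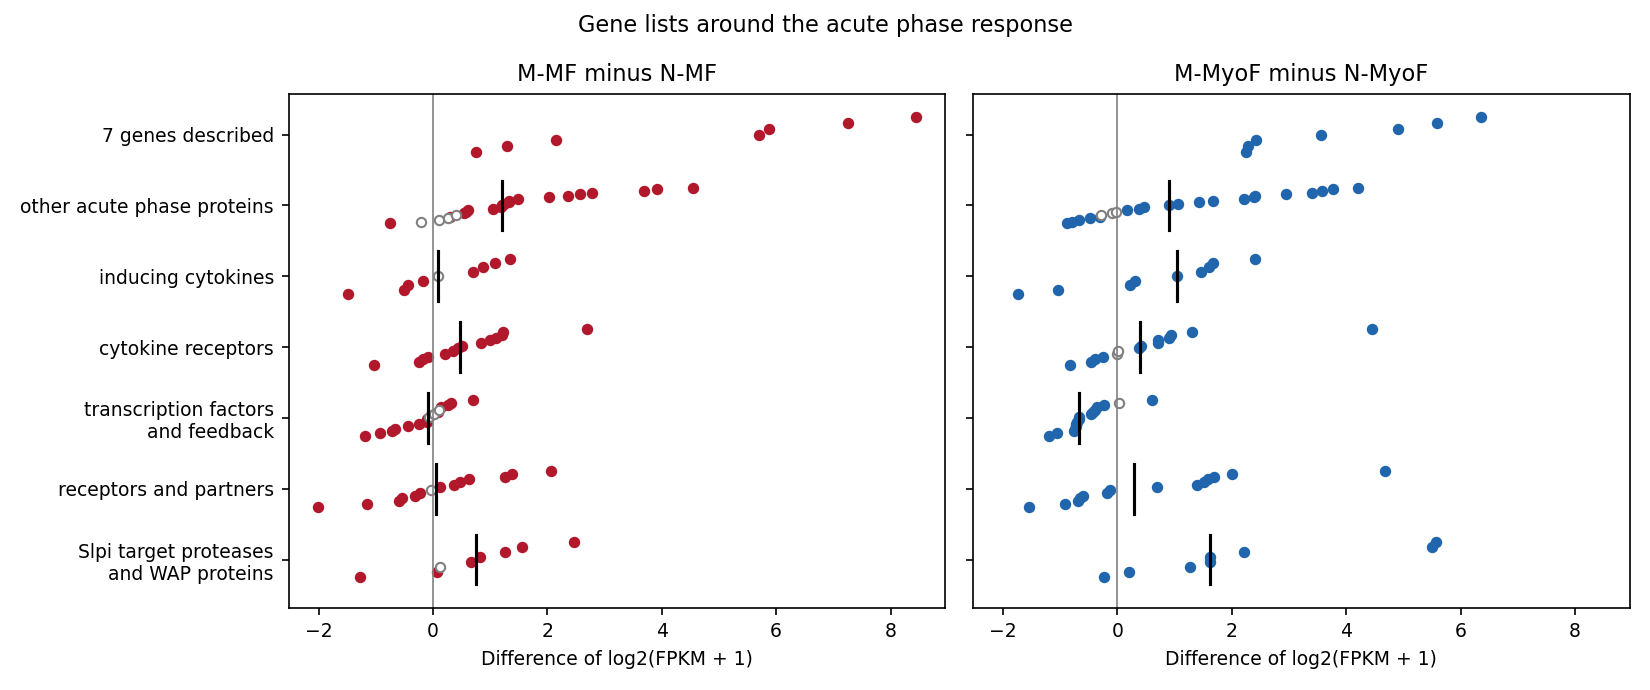
Difference of log2(FPKM + 1) for the 7 genes and 6 related gene lists, M-MF minus N-MF on the left and M-MyoF minus N-MyoF on the right. Filled points passed at an adjusted p under 0.05, open ones did not, and black lines mark list medians, such as 1.21 and 0.89 for the other acute phase proteins.

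The cytokines known to induce acute phase genes did not move as 1 group. Of 12 listed, 9 were tested, with 4 (44.4%) higher and 4 (44.4%) lower in M-MF against N-MF (median log2 difference 0.09), and 7 (77.8%) higher and 2 (22.2%) lower in M-MyoF against N-MyoF (median 1.04). Il6, the main inducer in liver, was lower in metastasis in both subgroups, at 72.5, 66.96 and 72.8 FPKM in M-MF libraries and 198, 195 and 206 FPKM in N-MF libraries. In M-MyoF libraries Il6 had 34.4, 33.9 and 34.99 FPKM, against 116, 114 and 120.0 FPKM in N-MyoF libraries. The groups stood apart, with log2 differences of -1.49 ± 0.0335 and -1.73 ± 0.0335 (limma adjusted p = 3.58e-13 and 7.56e-14). Il33, an alarmin of the interleukin 1 family, was higher, at 190 FPKM in M-MF and 89.2 in N-MF (1.09 ± 0.0388), and at 27.5 in M-MyoF and 8.45 in N-MyoF (1.60 ± 0.0388). Il11 and Clcf1, relatives of Il6, rose by 1.34 ± 0.0752 and 0.88 ± 0.0577 in MF.

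Oncostatin M (Osm) averaged 23.3 FPKM in M-MyoF and 3.58 in N-MyoF (2.41 ± 0.0743), and 2.29 FPKM in M-MF and 1.03 in N-MF (0.69 ± 0.0743). Il1b averaged 71.7 FPKM in M-MyoF and 21.7 in N-MyoF (1.68 ± 0.0547), but 4.34 FPKM in M-MF and 4.99 in N-MF (-0.17 ± 0.0547). The MF effect minus the MyoF effect was -1.72 ± 0.105 for Osm and -1.85 ± 0.0774 for Il1b (limma adjusted p = 2.3e-08 and 6.36e-10). These are cytokines that myeloid cells make, and M-MyoF is also the group with the highest neutrophil markers; their part was not tested.

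Of 14 receptors of these cytokines, all tested, 10 (71.4%) were higher and 4 (28.6%) lower in M-MF against N-MF (median 0.47). In M-MyoF against N-MyoF, 8 (57.1%) were higher and 4 (28.6%) lower (median 0.39), close to the shares of all genes, 49.1% and 31.6%. Il1rl1, the receptor of interleukin 33, averaged 6.003 FPKM in M-MF and 0.0833 in N-MF (2.69 ± 0.0566). Il1rl1 and, named after its values were seen, Il22ra1 of this list reached 1 FPKM in metastasis libraries alone. Their passing the expression filter already depended on being high there. Osmr, the oncostatin M receptor, averaged 69.4 FPKM in M-MF and 34.4 in N-MF (0.99 ± 0.0249), and 28.2 FPKM in M-MyoF and 28.3 in N-MyoF, where it did not pass (limma adjusted p = 0.965). The difference between the Osmr effects was 0.99 ± 0.0352 (limma adjusted p = 1.31e-10). Il1r2, a decoy receptor for interleukin 1, averaged 144 FPKM in M-MyoF and 5.62 in N-MyoF (4.45 ± 0.0282), against 11.4 FPKM in M-MF and 9.78 in N-MF (0.20 ± 0.0282). Il11ra1, the receptor of interleukin 11, fell in both, with log2 differences of -1.03 ± 0.0222 and -0.83 ± 0.0222.

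Genes of the transcription factors and feedback inhibitors of the pathway were mostly lower in MyoF. Of 18 listed, 16 were tested. In M-MyoF against N-MyoF, 1 (6.25%) was higher and 14 (87.5%) lower (median -0.67), where 49.1% of all genes were higher and 31.6% lower. In M-MF against N-MF, 5 (31.2%) were higher and 8 (50%) lower (median -0.08), where the shares of all genes were 46.3% and 31.8%. After quantile normalization the MF counts were 1 and 11. With that setting, 4354 of all 13300 genes tested were higher and 6432 lower. Cebpd, a C/EBP factor induced in the acute phase response of liver, averaged 16 FPKM in M-MF and 37.6 in N-MF (-1.18 ± 0.0292), and was lower in MyoF as well (-0.77 ± 0.0292). Rela, a subunit of NF-kappaB, was lower in M-MF than in N-MF (-0.67 ± 0.0261), as was Nr3c1, the glucocorticoid receptor (-0.93 ± 0.0354). Nfkbiz, the co-activator of NF-kappaB on Lcn2 and related genes, averaged 162 FPKM in M-MF and 220.0 in N-MF, and 225 FPKM in M-MyoF and 469.6 in N-MyoF, with log2 differences of -0.44 ± 0.0214 and -1.06 ± 0.0214. Stat3 averaged 139 FPKM in M-MyoF and 234 in N-MyoF (-0.75 ± 0.0164). In MF it averaged 115 FPKM in M-MF and 92.6 in N-MF (0.31 ± 0.0164), a rise that did not pass after quantile normalization. Cebpa, named after its values were seen, reached 1 FPKM in N-MyoF libraries alone. Its passing the expression filter already depended on being high there. The values of this list are RNA levels, and protein activity was not measured.

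The 17 genes listed as receptors and partners of the products of the 7 genes were split. Of these, 14 were tested. In M-MF against N-MF, 7 (50%) were higher and 6 (42.9%) lower (median 0.04). In M-MyoF against N-MyoF, 7 (50%) were higher and 7 (50%) lower (median 0.28). The counts include Hmox1 and Lrp1, named after their values were seen, which are not established binders of these products. Hmox1 was higher in both comparisons (0.47 in MF and 0.70 in MyoF) and Lrp1 lower (-0.32 and -0.60). Mmp9, the gelatinase that Lcn2 binds and protects, averaged 5.85 FPKM in M-MF and 0.633 in N-MF (2.07 ± 0.043), and 72.7 FPKM in M-MyoF and 1.87 in N-MyoF (4.68 ± 0.043). Scarb1, a receptor for high-density lipoprotein and serum amyloid A, rose by 1.25 ± 0.0373 in MF and 1.39 ± 0.0373 in MyoF. Plscr1, a scramblase that binds Slpi, rose by 1.38 ± 0.0335 and 1.58 ± 0.0335. Ager, a receptor for S100 proteins and amyloid A that alveolar type I cells express highly, averaged 68.6 FPKM in M-MF and 154 in N-MF (-1.15 ± 0.0415).

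Hba-a1, an alpha globin gene of red blood cells whose protein Hp binds, was named after its values were seen. It had 3.92, 5.84 and 6.36 FPKM in M-MF libraries, against 15.5, 23.8 and 38.3 FPKM in N-MF libraries. The M-MyoF libraries had 1063, 1128 and 2080.2 FPKM, against 1949.8, 2193 and 3955 FPKM in N-MyoF libraries. The MF groups stood apart, the MyoF groups overlapped, and the library numbered 3 was the highest of each group. The log2 differences were -2.01 ± 0.346 and -0.92 ± 0.346 (limma adjusted p = 0.000161 and 0.027), opposite in sign to those of Hp. The MyoF difference did not pass when M-MyoF replicate 1, M-MyoF replicate 2 or N-MyoF replicate 3 was left out.

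A list of 12 genes held proteases that Slpi blocks, other genes with the WAP domain of Slpi, and Grn, which is neither. Of the 12, 8 were tested. Grn, named after its values were seen, counted as higher in both comparisons (0.07 in MF and 0.20 in MyoF). Its sign changed in 3 alternatives in MF and 1 in MyoF. In M-MF against N-MF, 6 (75%) were higher and 1 lower (median 0.74). In M-MyoF against N-MyoF, 7 (87.5%) were higher and 1 lower (median 1.62). Elane, Ctsg and, named after its values were seen, Cma1 reached 1 FPKM in metastasis libraries alone. Their passing the expression filter already depended on being high there. Wfdc2, a WAP protein of airway epithelium, averaged 86.9 FPKM in M-MF and 15.03 in N-MF (2.46 ± 0.0463), and 238 FPKM in M-MyoF and 77.0 in N-MyoF (1.62 ± 0.0463). Elane, neutrophil elastase, averaged 5.66 FPKM in M-MyoF and 0.437 in N-MyoF (2.22 ± 0.0861), and 0.72 FPKM in M-MF and 0.08 in N-MF (0.67 ± 0.0861). Wfdc17 had 210.4, 207 and 228 FPKM in M-MyoF libraries, against 3.72, 5.97 and 1.83 FPKM in N-MyoF libraries, a log2 difference of 5.57 ± 0.269 (limma adjusted p = 5.84e-10). Wfdc1 went the other way, with 22.1 FPKM in M-MF and 55.4 in N-MF (-1.29 ± 0.0395).

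The genes whose pattern over the 12 libraries was nearest to each of the 7 were found by the root mean square difference of log2(FPKM + 1), each gene centred on its own mean. Only genes that passed the expression filter were compared, and unnamed gene models (numbered Gm or LOC, or ending in Rik) were left out. This is a description over 12 libraries that fall into 4 groups. For Saa3 the nearest was Chil4, a chitinase-like protein, at 0.257, followed by Serpinb2 at 0.756 and Tdo2, the tryptophan dioxygenase the series is concerned with, at 0.8. Chil4 averaged 0.01 FPKM in N-MF and 0.013 in N-MyoF, and Serpinb2 0.07 and 0.137, so the pseudocount of 1 weighs on these distances. With 0.1, Chil4 rose by 11.4 in MF and 8.19 in MyoF, against 8.57 and 5.0 for Saa3. With 5, the rises were 5.88 and 2.9 for Chil4, against 7.96 and 4.6 for Saa3. For Hp it was Chil3, another chitinase-like protein, at 0.243, then Lrrn4, one of the mesothelial markers, at 0.371, and Jchain at 0.498. Lcn2 was nearest to Ube2c, a ubiquitin-conjugating enzyme of mitosis, at 0.421, then Prl2c3 at 0.557 and Retnla at 0.601. Prl2c3 averaged 0 FPKM in both normal groups, so its distance too depends on the pseudocount. Orm1 was nearest to Ltb4r1, the leukotriene B4 receptor of neutrophils, at 0.197, then Ceacam10 at 0.235 and Adam8 at 0.25. Slpi was nearest to Lcn2 at 0.615, then Spp1 at 0.687 and Ube2c at 0.695. Saa1 was nearest to Akr1c13, Mthfd1l and Tpd52 at 0.102 to 0.138, and Saa2 to Slc2a6, Slco4a1 and Selp at 0.153 to 0.182. The levels of Saa1 and Saa2 spanned fewer log2 units than those of the other 5 genes. Among the 7, the closest pair was Saa1 and Saa2 at 0.445 and the farthest Saa3 and Orm1 at 3.14.

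The genes beside the 5 loci were examined by a rule chosen after values were seen, taking 2 annotated genes on each side. Of 20 such neighbours 14 were tested. In M-MF against N-MF, 6 were higher and 3 lower, with log2 differences of -0.74 to 1.09 and a median of 0.10. In M-MyoF against N-MyoF, 7 were higher and 4 lower, with differences of -0.73 to 1.73. These counts are close to the 46.3% and 49.1% of all genes that were higher and the 31.8% and 31.6% that were lower. In each comparison 1 neighbour changed by 2-fold or more, 1110008P14Rik beside Lcn2, by 1.09 ± 0.0591 in MF and 1.73 ± 0.0591 in MyoF.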

How the data were processed

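Groups were taken from the sample titles. Trizol was used to extract the RNA, and polyA RNA was copied and amplified by SMART-seq2, then made into libraries with a transposon, per the labels' protocols. The FPKM values were computed by the authors and deposited with 2 decimals. The build was GRCm38 per the submitters' processing notes. How reads were aligned and counted, on which annotation and with or without strand, is not given in the sources used here. Since depth is unknown, precision rests on the 3 libraries of a group.

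Values were analysed as log2(FPKM + 1), for the 13300 genes that reached 1 FPKM in 3 or more libraries. In R 4.3.3, limma 3.58.1 fitted 4 group means to 12 libraries with a mean-variance trend. In each of 5 contrasts, Benjamini-Hochberg adjustment ran over all of these genes, and passing meant an adjusted p under 0.05. With 3 against 3 libraries an exact permutation test of a single gene cannot go below 0.1, and none is given. The code was tested on simulated data. Tables and figures were made with Python 3.11.15, pandas 2.3.3, numpy 2.4.6 and matplotlib 3.10.9.

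Positions and the 250-base windows come from RefSeq on GRCm38.p6, and transcript identity from GENCODE release M21. The members and gene lists were chosen with earlier results of these data known. Genes named are the 7 members, up to 4 list genes with the smallest p per list and contrast, the 3 genes nearest in pattern to each member, defining markers, near copies of members, and those said to be named after their values were seen. The alternatives were a pseudocount of 0.1 or 5, no expression filter, a filter of 5 FPKM, equal sums per library, median-ratio scaling, quantile normalization, the compared groups alone, no trend, the replicate number as a block, each library left out, and a minimum of 2-fold.

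Library numbers pair across groups: over 1830 genes at 50 FPKM or more, deviations from the group means correlated at 0.482 to 0.796 in 18 same-numbered pairs, and at -0.683 to 0.38 in the 36 other pairs. No label says what the number marks.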

Additional observations from a re-analysis of the deposited data

Results flagged for a closer look

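For 6 of the 7 genes the effect of metastasis differed between MF and MyoF in the limma test of that difference, which is why they are listed here; 64.4% of all genes tested passed the same test. On the log2(FPKM + 1) scale the rise was larger in MF for Saa3 by 3.52, for Hp by 3.28 and for Slpi by 1.67. It was smaller in MF for Orm1 (-2.81), Saa2 (-0.94) and Lcn2 (-0.48). Saa2 rested on values under 10 FPKM in every library, and its difference did not pass with a pseudocount of 0.1. Beside these stand the marker sums: neutrophil markers stood at 13274 to 13622 FPKM in M-MyoF, against 141 to 154 in N-MyoF, and mesothelial markers at 265 to 269 FPKM in M-MF, against 16.9 to 18.3 in N-MF. Their part in the differences was not tested.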

How the results depend on the processing

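In both metastasis comparisons the 7 genes kept their direction and call under each alternative in which they were tested, except that Orm1 in M-MF against N-MF (0.75) falls short of a 2-fold minimum. Orm1 reached 1 FPKM in 3 libraries alone, those of M-MyoF, so it had no value when any of these was left out, without the libraries numbered 3, or in M-MF against N-MF with the compared groups alone. Over the 7 genes and 5 contrasts, 772 alternative values stayed on the same side of the threshold and in the same direction, 19 no longer passed, 6 newly passed and 7 changed sign; for those below, the cause was not tested. With the library number as a replicate block no call of the 7 genes changed; Saa3 in M-MF against N-MF stayed at 8.44. A 2-fold minimum also dropped Saa2 (-0.94) and Lcn2 (-0.48) in the difference of effects, Saa1 (-0.31) and Hp (0.91) in M-MF against M-MyoF, and Saa2 (-0.37), Saa3 (-0.60) and Orm1 (-0.41) in N-MF against N-MyoF, leaving 3 of 6 genes there. The Saa1 difference of effects, which did not pass, turned to 0.15 with a pseudocount of 0.1, 0.0215 with equal sums, 0.0417 with median-ratio scaling and 0.0436 without the 4 libraries numbered 3; that of Saa2 was -0.16 with a pseudocount of 0.1. In M-MF against M-MyoF, Saa1 was -0.36 with a pseudocount of 0.1, -0.24 with equal sums, -0.0884 with median-ratio scaling, 0.0201 with quantile normalization and -0.19 without the libraries numbered 3. Slpi there was 0.12 with median-ratio scaling, and passed with a pseudocount of 5 (-0.14), with the compared groups alone (-0.15) and without N-MF replicate 1. In N-MF against N-MyoF, Saa1 passed with a pseudocount of 0.1 (-0.52), with equal sums (-0.26) and without M-MF replicate 3, and was 0.14 with quantile normalization and -0.23 without the libraries numbered 3. Saa2 there did not pass with a pseudocount of 5 (-0.0863), quantile normalization (-0.21), or without the libraries numbered 3 (-0.39), and Orm1 did not with quantile normalization (-0.25). With 1 library left out at a time, Slpi in M-MF against M-MyoF ranged from -0.16 to -0.13, and in N-MF against N-MyoF Saa1 ranged from -0.22 to -0.11 and Saa2 from -0.43 to -0.30, Saa2 not passing without replicate 1 of either group. Saa2 had no value under the filter of 5 FPKM. Quantile normalization moved the median of all genes in M-MF against N-MF to -0.10, against 0.08 as deposited, and the counts higher and lower to 4354 and 6432, against 6153 and 4229. In M-MF against M-MyoF it moved these counts to 4803 and 5362, against 2536 and 8784. In N-MF against N-MyoF it moved them to 5463 and 5019, against 3254 and 7658. With median-ratio scaling they were 4440 and 5932 in M-MF against M-MyoF. In N-MF against N-MyoF they were then 4885 and 5732.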
